A study of Mus musculus with 8 samples.

Results

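The meiotic recombination machinery was examined in mouse testes at postnatal day 8 through 8 of its genes, Spo11, Dmc1, Mei1, Msh4, Msh5, Mlh3, Psmc3ip and Mnd1. The members were the probes whose gene name in the array files was one of these symbols. That rule gave 12 probes for 7 of the 8 genes, out of 41174 probes and 27962 gene names on the array. Dmc1 was absent under its own symbol and was found under the older name Dmc1h (NM_010059), so 13 probes for 8 genes are described. Counts are given for the 7 genes named by the files, with Dmc1 beside them.

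Total RNA from testes of male wild type mice and male VRK1-deficient mice was labeled with Cy3 and hybridized to 1-color Agilent Whole Genome Mouse arrays, 1 sample per array and 4 biological replicates of each genotype. VRK1 (vaccinia-related kinase 1) is a kinase of dividing cells. The mutant carried a gene trap, a β-geo cassette in intron 3 of Vrk1, and came from 1 ES cell line (RRR178) backcrossed to C57BL/6 mice. The allele is hypomorphic, which means that some full-length VRK1 was still made. The comparison asks how gene expression in the young testis differs when VRK1 is reduced, and here it is read for the genes that make and repair meiotic DNA breaks.

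In meiotic prophase, germ cells cut their own DNA and repair the breaks from the homologous chromosome, so that some breaks become crossovers. SPO11 makes the breaks and MEI1 is required for them. The recombinase DMC1 then pairs the broken end with the homolog, helped by the PSMC3IP (HOP2) and MND1 complex, and the MSH4 and MSH5 complex, with a nuclease that contains MLH3, turns part of these joints into crossovers. In the first wave of mouse spermatogenesis this program is only starting when the earliest spermatocytes form.

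Each array measured a gene through probes of 60 bases. The sequences below are shown because the results turn on these probes, either as the one called change, as a probe detected on fewer mutant arrays, or as 2 probes of a gene to be set side by side. They are written 5′ to 3′ in lower case throughout, as the array files hold them. Positions are those of the files on mouse build mm7. Exon and UTR annotation of that build was not used here.
Mei1 A_51_P406835, chr15:82211102-82211161, plus strand: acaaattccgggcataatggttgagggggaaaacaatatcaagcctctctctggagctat
Spo11 A_52_P660477, chr2:172736438-172736497, plus strand: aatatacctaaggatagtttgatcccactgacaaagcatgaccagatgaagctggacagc
Msh4 A_51_P288855, chr3:153771540-153773961, minus strand: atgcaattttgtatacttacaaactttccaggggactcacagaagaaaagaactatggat
Msh5 A_52_P326240, chr17:33141512-33142246, minus strand: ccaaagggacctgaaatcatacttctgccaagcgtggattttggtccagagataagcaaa
Msh5 A_51_P429865, chr17:33125919-33126321, minus strand: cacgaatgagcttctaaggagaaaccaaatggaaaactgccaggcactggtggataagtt
Psmc3ip A_51_P256706, chr11:101201455-101201589, minus strand: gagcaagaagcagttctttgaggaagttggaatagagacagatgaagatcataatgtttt
Psmc3ip A_52_P238044, chr11:101201944-101202003, minus strand: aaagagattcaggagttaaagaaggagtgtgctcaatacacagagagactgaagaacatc
The Msh4 probe covers 2422 bases of the chromosome with 60 letters, so it lies across spliced exons. The same holds for both Msh5 probes shown (735 and 403 bases) and for Psmc3ip A_51_P256706 (135 bases).

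Signals are given on the log2 scale, with the processed signal divided by its array's 75th percentile, so that 0 is the level of that percentile. The 8 arrays lay on 2 slides, with replicates 1 and 2 of both genotypes on slide 1 and replicates 3 and 4 on slide 2. Array position and genotype cannot be told apart, because each genotype took the same positions on both slides. Vrk1 itself was at 6.23% of the wild type signal (A_51_P102339, log2 change -4.00, limma adjusted p = 0.000135). Wild type replicate 1 stood apart. Across 26941 probes its correlation with each mutant array was 0.987 to 0.99, and with the rest of its own genotype only 0.97 to 0.986. Results that rest on this array are given with and without it. It was singled out for its likeness to the mutant arrays, so leaving it out favors a difference between genotypes. In RNA of whole testes, fewer cells of a type and less RNA per cell cannot be told apart.

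Of the 13 probes, 10 were well above background on all 8 arrays, 2 on some arrays and 1 on none. The probe on none was Msh5 A_52_P297836 (AK017308, chr17:33141661-33141720, minus strand). Of all probes on the array, 59.2% passed this detection limit on all 8 arrays and 28% on none. Probes well above background on at least 4 arrays were compared between genotypes with limma, and a change was called at an adjusted p under 0.05 over all 26948 probes tested. The change is VRK1-deficient minus wild type. By this test, 1 of the 6 tested genes (of 7) was called, and it was Mei1. Over all tested probes 3.66% were called, 1.99% lower and 1.67% higher. With Dmc1 the count was 1 of 7 tested genes. At an unadjusted p under 0.05 there were 2 of the 6 genes (Mei1 and Mlh3), or 3 of 7 with Dmc1, and all were lower, beside 28.8% of all tested probes (14.8% lower). For 1 of the 6 (Mei1) no wild type array overlapped the mutant arrays, beside 16.7% of all tested probes. The median log2 change of the 6 tested genes was -0.21, beside 0.04 over all tested probes.

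**Figure D1:**
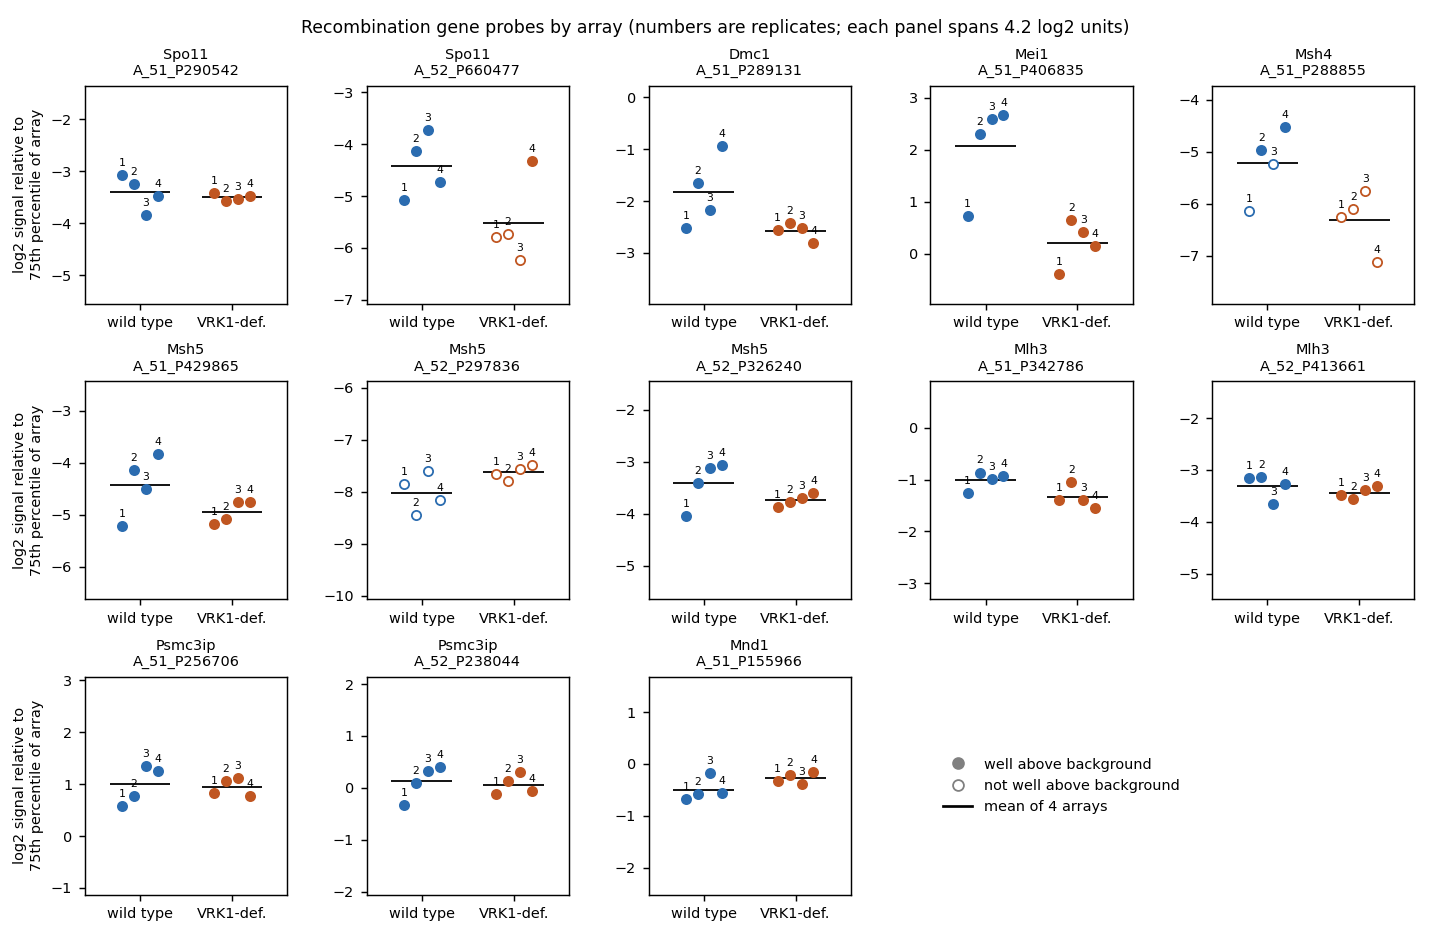
Log2 signal, scaled by the 75th percentile of each array (y axis), for each of the 13 probes in wild type and VRK1-deficient testes (x axis). Each point is 1 array, marked with its replicate number, an open point is not well above background, and the line is the mean of 4. Mei1 is the probe whose arrays do not overlap between genotypes, and the Msh4 and second Spo11 probes are detected on fewer VRK1-deficient arrays.

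Among the genes of break formation, Mei1 was lower in every VRK1-deficient testis. The log2 signal of Mei1 (AY270177) was 0.72, 2.31, 2.60 and 2.67 in wild type replicates 1 to 4. It was -0.40, 0.65, 0.41 and 0.14 in VRK1-deficient replicates 1 to 4. The genotypes did not overlap, but wild type replicate 1 lay within 0.1 of the highest VRK1-deficient array. Over all tested probes, 7.31% were lower without overlap. The wild type mean was 2.08 ± 0.92 (SD, n = 4) and the mutant mean 0.20 ± 0.45 (SD, n = 4), a log2 change of -1.88 (standard error 0.42, limma adjusted p = 0.0492). Mei1 thus stood at 27.2% of the wild type signal, or 3.67-fold lower. The study lists Mei1 among genes it chose as lower on these arrays, so its direction is not independent evidence. Slide 1 alone gave -1.39 and slide 2 alone gave -2.36. After wild type replicate 1 was left out, the change was -2.33 (limma adjusted p = 0.00316), in a setting where 28.7% of all tested probes were called. When another of the remaining 7 arrays was left out instead, it lay between -2.03 and -1.68 and the limma adjusted p between 0.0794 and 0.151, so the call was lost. It was also lost with slide as a block (limma adjusted p = 0.0505).

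Spo11, the gene of the break-making enzyme, had 2 probes, and neither was called. The probe downstream (A_51_P290542, chr2:172737758-172737817, plus strand) was well above background on all 8 arrays. Its log2 signal was -3.07, -3.25, -3.84 and -3.47 in wild type and -3.42, -3.57, -3.53 and -3.47 in VRK1-deficient testes. The genotypes overlapped fully, and the log2 change was -0.09 (95% interval -0.46 to 0.28, limma adjusted p = 0.739). The probe printed above, A_52_P660477, starts 1320 bases upstream of it. It was well above background on 4 wild type arrays and on 1 VRK1-deficient array. Its log2 signal was -5.08, -4.13, -3.72 and -4.73 in wild type and -5.80, -5.73, -6.22 and -4.33 in VRK1-deficient testes. Replicate 4 was the mutant array on which it was detected, and there it reached the wild type range. The log2 change was -1.10 (standard error 0.42, unadjusted p = 0.0282, limma adjusted p = 0.131), and it was -1.498 without that array and 0.024 with normexp background correction. The difference between the 2 probes on the same array changed by -1.01 between genotypes (exact permutation p = 0.171, two-sided, 70 arrangements, smallest possible p 0.0286). Such a test was run for 4 pairs of probes, and none reached that smallest p.

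Of the strand exchange genes Dmc1, Psmc3ip and Mnd1, none was called. Dmc1 (Dmc1h, A_51_P289131, chr15:79646126-79646185, minus strand) had a log2 signal of -2.53, -1.66, -2.17 and -0.94 in wild type testes. In VRK1-deficient testes it was -2.56, -2.42, -2.52 and -2.81. The mutant arrays lay close together, and wild type replicate 1 fell among them. The log2 change was -0.76 (standard error 0.30, unadjusted p = 0.0327, limma adjusted p = 0.140) and did not pass the test. Without wild type replicate 1 it was -0.99 (limma adjusted p = 0.0246), in a setting where 28.7% of all tested probes were called. It was -0.40 within slide 1 and -1.11 within slide 2.

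Psmc3ip, the HOP2 partner of MND1, was measured by 2 probes that start 489 bases apart. With A_51_P256706 its log2 signal was 0.58, 0.78, 1.36 and 1.26 in wild type and 0.84, 1.07, 1.12 and 0.77 in VRK1-deficient testes. With A_52_P238044 it was -0.33, 0.09, 0.33 and 0.41 in wild type and -0.12, 0.13, 0.31 and -0.07 in the mutant. On both probes the mutant arrays lay within the wild type range. The log2 changes were -0.04 (95% interval -0.47 to 0.38, limma adjusted p = 0.894) and -0.06 (95% interval -0.47 to 0.35, limma adjusted p = 0.839), and both turned positive within slide 1 and without wild type replicate 3 or 4. Mnd1 (A_51_P155966, chr3:84201253-84201312, minus strand) was the tested gene with a higher mean in the mutant. Its log2 signal was -0.68, -0.58, -0.17 and -0.56 in wild type and -0.32, -0.22, -0.38 and -0.16 in VRK1-deficient testes. Wild type replicate 3 lay near the top of the mutant range and the other wild type arrays below it. The log2 change was 0.23 (95% interval -0.08 to 0.53, limma adjusted p = 0.290).

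Of the crossover genes, Msh4 was near the limit of detection. The Msh4 probe was well above background on wild type replicates 2 and 4 and on no VRK1-deficient array, so it was not tested. Its log2 signal was -6.14, -4.97, -5.24 and -4.53 in wild type and -6.25, -6.11, -5.76 and -7.12 in VRK1-deficient testes. The means of these values, most of them not well above background, were -5.22 ± 0.68 (SD, n = 4) and -6.31 ± 0.58 (SD, n = 4). Fitted without the filter on dim probes, its limma adjusted p was 0.156. The study lists Msh4 among genes it chose as lower on these arrays, so its direction is not independent evidence.

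Msh5, the partner of Msh4, was detected on all 8 arrays by the 2 probes shown, which start 15593 bases apart. With A_52_P326240 the log2 signal was -4.03, -3.40, -3.11 and -3.06 in wild type and -3.86, -3.78, -3.71 and -3.60 in VRK1-deficient testes. With A_51_P429865 it was -5.22, -4.14, -4.51 and -3.83 in wild type and -5.17, -5.09, -4.76 and -4.76 in the mutant. On both probes wild type replicate 1 was the lowest of all 8 arrays and the other wild type arrays lay above every mutant array. The log2 changes were -0.34 (95% interval -0.80 to 0.13, limma adjusted p = 0.308) and -0.52 (95% interval -1.14 to 0.10, limma adjusted p = 0.241), and the second was 0.10 with normexp background correction. Without wild type replicate 1 they were -0.55 (limma adjusted p = 0.0156) and -0.78 (limma adjusted p = 0.0176). In that setting 28.7% of all tested probes were called.

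Mlh3, which encodes a subunit of the crossover nuclease, had small differences. Its brighter probe (A_51_P342786, chr12:83235248-83235307, minus strand) gave -1.26, -0.86, -0.98 and -0.93 in wild type and -1.40, -1.04, -1.39 and -1.55 in VRK1-deficient testes. Mutant replicate 2 and wild type replicate 1 made the genotypes overlap. The log2 change was -0.34 (95% interval -0.66 to -0.01, unadjusted p = 0.0436, limma adjusted p = 0.162), and -0.42 without wild type replicate 1 (limma adjusted p = 0.0494). The other probe (A_52_P413661, chr12:83268570-83268629, minus strand) changed by -0.13 (95% interval -0.45 to 0.19, limma adjusted p = 0.559), with the sign turned by normexp and within slide 2. Mlh3 lies on the chromosome of the gene trap, 20.3 Mb from the Vrk1 probes. Of the 6 tested genes by name, 3 were called without wild type replicate 1 (Mei1, Msh5 and Mlh3), all lower, beside 28.7% of all probes tested in that setting (14.7% lower). With any other array left out 0 were called, beside at most 0.24% of all probes.

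**Figure D2:**
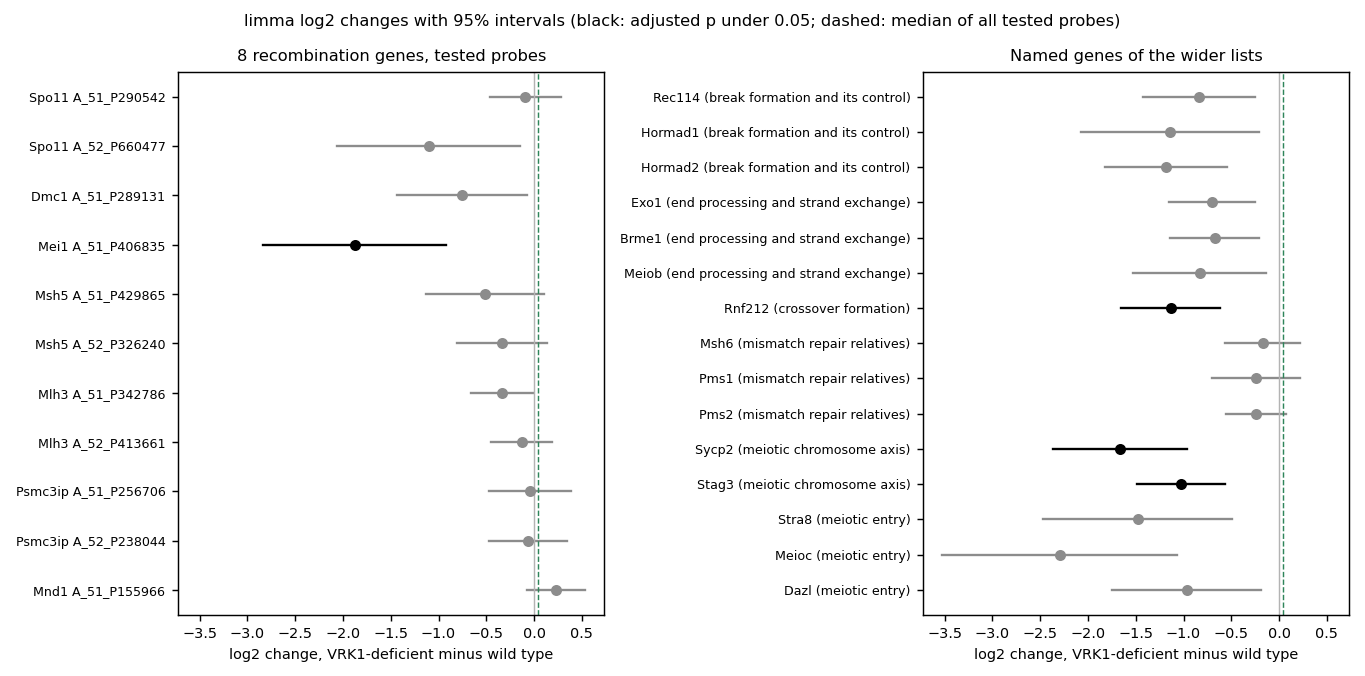
Log2 change (x axis, VRK1-deficient minus wild type) with 95% limma intervals for the 11 tested probes of the 8 genes (left) and for named genes of the wider lists (right). Black marks an adjusted p under 0.05 and the dashed line is the median of all tested probes, 0.04. Mei1, Rnf212, Sycp2 and Stag3 are black, and on the right the mismatch repair genes lie closest to 0.

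The wider machinery was read from 6 lists with 63 genes, of which 54 had a probe and 49 were tested. Of these 3 were called lower and 0 higher, and 44 of 49 had a lower mean in the mutant, beside 45.5% of all tested probes. The median log2 change was -0.46. In break formation and its control, 4 of 9 genes were tested, 0 were called and 4 had a lower mean. The largest differences were those of the axis-bound Hormad2 (-1.18, limma adjusted p = 0.0536) and Hormad1 (-1.14, limma adjusted p = 0.115) and of Rec114, a cofactor of SPO11 (-0.84, limma adjusted p = 0.0824). Mei4 and Prdm9 were well above background on no array.

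Of 19 tested genes of end processing and strand exchange, 0 were called and 17 had a lower mean. The single-strand binding Meiob differed by -0.83 (limma adjusted p = 0.122) and the exonuclease Exo1 by -0.70 (limma adjusted p = 0.0688). The next largest was Brme1, a meiotic break repair factor, at -0.67 (limma adjusted p = 0.0806). In crossover formation 1 of 7 tested genes was called. This was Rnf212, a factor that stabilizes crossover sites, at -1.14 (standard error 0.23, limma adjusted p = 0.0454). Hfm1 and Cntd1 were well above background on no VRK1-deficient array, and on only 3 and 2 wild type arrays, so neither was tested. On wild type replicate 1 both lay below every VRK1-deficient array.

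The mismatch repair genes, relatives of Msh4, Msh5 and Mlh3 that work in all dividing cells, were not called. In this list 0 of 5 tested genes were called and 4 had a lower mean, with a median log2 change of -0.17. Msh6 differed by -0.17 (95% interval -0.56 to 0.21, limma adjusted p = 0.527). Pms1 and Pms2 each differed by -0.24 (limma adjusted p = 0.455 and 0.277). The axis list covered the chromosome axis, on which recombination takes place. It also held Sycp1, Syce1, Syce2, Syce3 and Tex12, genes of the synaptonemal complex that joins the paired axes. All 10 tested genes of this list had a lower mean and 2 were called. These were Sycp2, an axis protein, at -1.67 (limma adjusted p = 0.0435) and the cohesin subunit Stag3 at -1.03 (limma adjusted p = 0.0454). For meiotic entry, 0 of 5 tested genes were called and 5 had a lower mean, with Meioc at -2.30 (limma adjusted p = 0.0525), Stra8 at -1.48 (limma adjusted p = 0.0760) and Dazl at -0.96 (limma adjusted p = 0.112). The study lists Sycp2, Stag3, Syce1 and Smc1b of the axis list among genes it chose as lower on these arrays. It also lists Stra8 and Dazl of the entry list, so the direction of these genes is not independent evidence. The median of the axis list was -1.20 and that of the entry list -0.96. Without wild type replicate 1, 33 of the 49 genes were called, all lower, beside 28.7% of all 26594 probes then tested (14.7% lower). With any other array left out 0 were, beside 0.0113% to 0.24% of all probes.

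Germ cell markers had lower means in the mutant as well. Of 8 markers, 7 were tested, and none of the 7 was at background. All 7 had a lower mean, beside 45.5% of all tested probes. In this list 2 were called lower (Tdrd1 and Tdrd9), beside 1.99% of all tested probes. Sycp3 was also in the axis list and Dazl in the entry list. The study lists Dazl among genes it chose as lower, so its direction is not independent evidence. The level of the 7 markers, summed as multiples of the 75th percentile, was 23.1 to 56.2 on the wild type arrays, with 23.1 on replicate 1, and 15.9 to 24.8 on the VRK1-deficient arrays. Of 10 Sertoli cell markers, 9 had a higher mean and 0 were called, with a summed level of 112 to 182 in wild type, the 182 on replicate 1, and 162 to 198 in the mutant. Their part in the results above was not tested.

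Each gene was then set against the mean log2 signal of the 7 germ cell markers on the same array, a comparison added after the data had been seen. The mean of the markers was 1.96 ± 0.63 (SD, n = 4) for the wild type arrays and 0.90 ± 0.35 (SD, n = 4) for the mutant arrays, which is a difference of -1.06. Single markers changed by -1.47 to -0.81. Sycp3, itself a meiotic gene, changed by -1.40, and no mean without it was computed. Mei1 differed by more than the markers. Relative to them it was -0.33 to 0.45 in wild type and -0.87 to -0.55 in the mutant, a difference of -0.81 without overlap (exact permutation p = 0.0286, two-sided). Psmc3ip, Mnd1 and Msh5 differed in the other direction. The markers' own difference of -1.06 by itself raises a gene with no change on this scale, and Psmc3ip changed by -0.04. With the brightest probe of each gene, Psmc3ip was higher relative to the markers by 1.02, Mnd1 by 1.29 and Msh5 by 0.73. Each was without overlap (exact permutation p = 0.0286). Mlh3 differed by 0.73 (exact permutation p = 0.0571), Spo11 by 0.97 (exact permutation p = 0.143) and Dmc1 by 0.31 (exact permutation p = 0.4), with overlap in each. Adjusted over these 7 tests, none was under 0.05, and 0.0286 is the smallest p that 4 arrays against 4 allow. With normexp background correction the Psmc3ip arrays overlapped (exact permutation p = 0.0571), and with 1 array left out the p of Mei1, Msh5, Psmc3ip and Mnd1 was either 0.0286 or 0.0571 (exact permutation). Without wild type replicate 1 the Mei1 difference was -0.96. The dimmer probes of these genes were not tested in this way. For Msh5 A_51_P429865 the genotypes overlapped on this scale. Spo11 A_52_P660477 changed by -1.10, close to the -1.06 of the markers. A difference relative to the markers shows unequal change between probes and does not show that either stayed constant. The share of all tested probes without overlap on this scale was not computed, so these genes have no background to be read against.

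**Figure D3:**
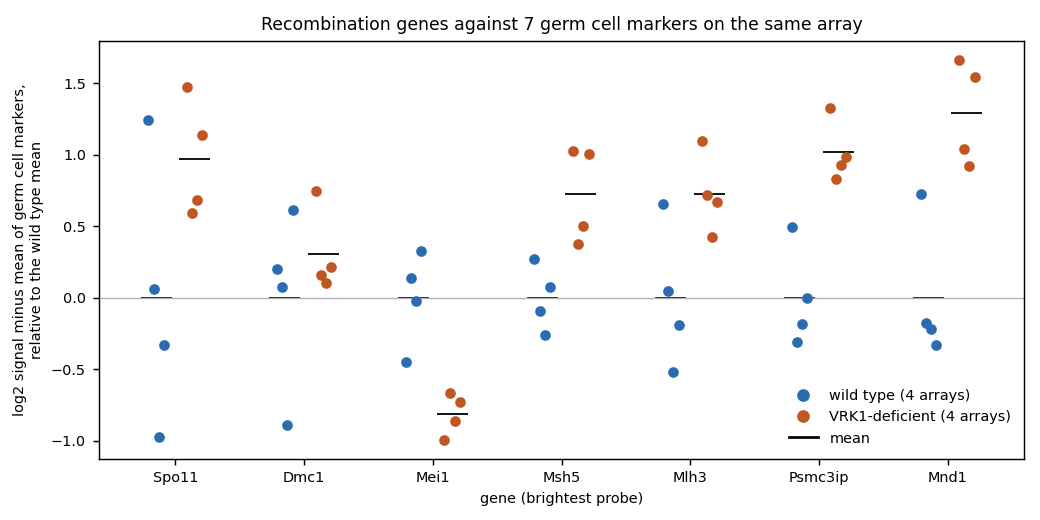
Log2 signal of the brightest probe of 7 genes minus the mean of 7 germ cell markers on the same array (y axis). Values are set to 0 at the wild type mean, for wild type and VRK1-deficient arrays (4 each). Mei1 lies below the wild type arrays, Msh5, Psmc3ip and Mnd1 lie above them, and Spo11, Dmc1 and Mlh3 overlap.

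**Figure D4:**
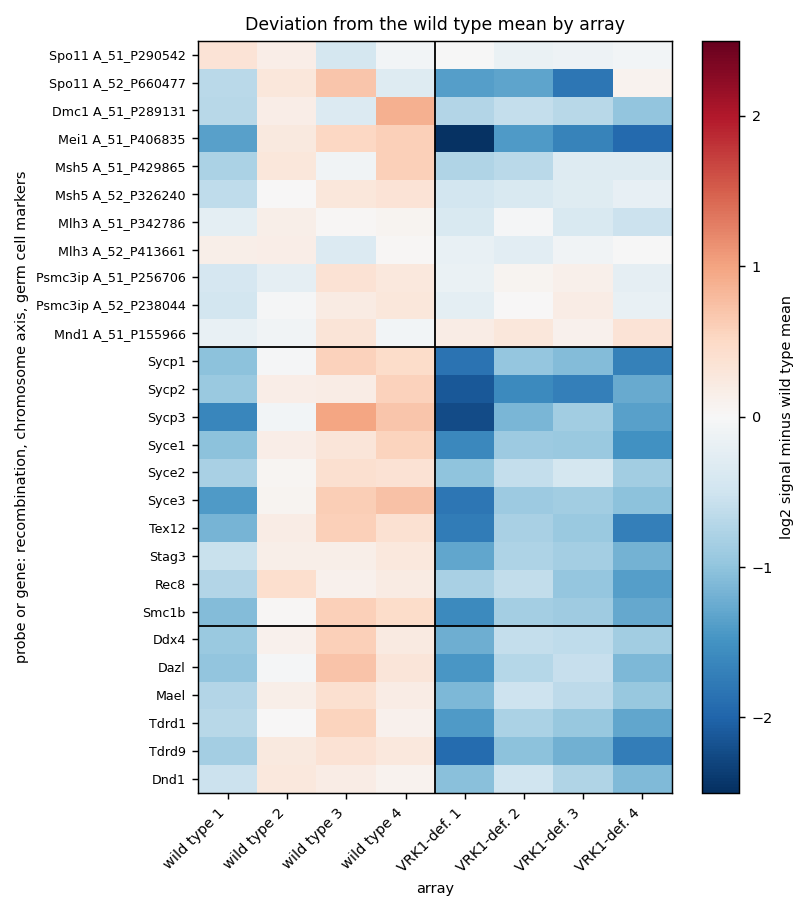
Deviation of the log2 signal from the wild type mean (color) on each of the 8 arrays (x axis). Rows are the tested probes of the 8 genes, the 10 genes of the axis list and the germ cell markers. Of the markers, Sycp3 is shown with the axis list. Wild type replicate 1 is below the wild type mean for Mei1, Dmc1, the Msh5 and Psmc3ip probes, the axis list and the germ cell markers.

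The mean of the 6 tested genes by name was -1.29 on wild type replicate 1, -0.83 to -0.68 on the other wild type arrays, and -1.43 to -1.15 on the VRK1-deficient arrays. Wild type replicate 1 thus lay within the mutant range. The 5 other probes most like this mean over the 8 arrays were those of Tktl2 (Pearson r = 0.998), Ptgr2 (r = 0.997), Elavl2 (r = 0.997), Smad5 (r = 0.996) and Lrig2 (r = 0.996). The arrays share genotype, slide and scaling across probes, so no p is given. None of the 5 was called, with limma adjusted p between 0.0836 and 0.120.

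Promoters of 300 bases from RefSeq (GRCm38.p6, 250 before to 50 after the start) were found for 7 of the 8 genes in 8 entries. The E2F motif TTCCCGC, searched on both strands, was in 1 of the 8, that of Msh5, and in 4.6% of all 32851 promoters. The E-box CACGTG, the MYB motif CAACTG and the CRE motif TGACGTCA were in 0 of the 8, beside 7.15%, 13.7% and 1.79% of all promoters. A missing match says only that these letters are not in this window.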

How the data were processed

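The authors hybridized Cy3-labeled testis RNA to 1-color arrays and extracted them with Agilent Feature Extraction (version 9.5.3.1 in the submitters' processing notes). The deposited values are its processed signals, linear intensities from which the background was subtracted and which were not put on a common scale, and the deposited value table held the same intensities. The methods name GeneSpring GX for later steps. Here, control and outlier spots were left out. Each intensity was turned to log2, the log2 75th percentile of its array was subtracted, and replicate spots were averaged. A probe was tested if it was well above background on 4 or more of the 8 arrays. The test was limma 3.58.1 (lmFit, eBayes) in R 4.3.3, with Benjamini-Hochberg adjustment over every tested probe. On simulated data with 200 changed probes it recovered 57% of log2 changes of 1 and 91% of changes of 2. The simulated noise was independent between probes, so this check does not cover shifts that the probes of an array share. Where a gene had more than 1 probe, the brightest stood for it. Symbols came from the files, then from a RefSeq list (GRCm38.p6) through accession or synonym. No spot other than controls was saturated, and the number of arrays limits the precision. The labels call the 4 samples of a genotype biological replicates.

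The members and all lists were chosen with earlier results of these data known. Besides the 8 genes, the text names the called genes of each wider list, or otherwise its 3 largest changes, as well as Vrk1 and the 5 most similar probes. Some genes that the naming rule also held are not reported here. The lists were break formation, strand exchange, crossover formation, mismatch repair, chromosome axis and meiotic entry, and markers of germ cells, undifferentiated and differentiating spermatogonia, Sertoli, Leydig, peritubular myoid and immune cells, pachytene and spermatid genes and housekeeping genes. The alternatives tried were quantile normalization, normexp with an offset of 50, and the deposited values as they are. The filter on dim probes was dropped or set to all 8 arrays, and a gene was also read as the mean of its probes or matched by accession. Slide and replicate number were each used as a block, slides were fitted singly, and every array was left out once. Limma was also run with an intensity trend and robust variances, and the methods' t-test was run on the same values. Data were handled with data.table (version 1.17.8) and pandas 2.3.3 in Python 3.11.15, and figures were drawn with matplotlib 3.10.9.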

Additional observations from a re-analysis of the deposited data

Results flagged for a closer look

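The Hprt probe A_51_P239673, one of the housekeeping genes, had a log2 signal of 3.47 on VRK1-deficient replicate 4 and of -2.99 to -2.91 on the other VRK1-deficient arrays, so 1 array lay far from the rest of its group. On the wild type arrays it was 3.29 to 3.84, so replicate 4 was at the wild type level and the 3 other mutant arrays were not. None of the 26 groups of 4 arrays for the recombination probes had such an array. Over all lists 13 of 266 groups did. Among them were the wild type groups of Rec114, Rnf212, Stag3, Tdrd9, Lin28a and Kit, each with a low value on replicate 1. For independent groups chance gives about 1 in 20. These groups share arrays, so that rate is no test of the 13.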

How the results depend on the processing

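Mei1 was lower under every alternative run (log2 change -2.36 to -1.39) and had an adjusted p under 0.05 in 9 of 21. These 9 include the run that matched members by accession, which leaves the main fit of Mei1 unchanged. Of the tested recombination genes (main count 1), 0 were called with quantile normalization and with no filter on dim probes. None was called with slide as a block or within slide 1. By the methods' t-test 0 were called after Benjamini-Hochberg. That t-test called 2 unadjusted, beside 26.2% of all tested probes (13% lower). With 1 array left out 0 to 3 were called. Over all probes (986, of which 535 lower and 451 higher) the count was 17 with no filter, 641 with slide as a block, 3 within slide 1, 1915 with an intensity trend, 7066 by the t-test unadjusted and 162 after adjustment, and 3 to 7644 with 1 array left out (7644 without wild type replicate 1, at most 64 otherwise). Without scaling, 852 of 916 calls were lower and 64 higher. Of the wider genes (3 of 49 called), 13 were called with normexp (beside 5.24% of all tested probes) and 10 without scaling (3.4%). Calls were 0 of 54 tested with no filter (0.0413%) and 6 of 48 with a filter on all 8 arrays (5.7%). Within slide 1 there were 0 (0.011%), and within slide 2 there were 19 of 51 (4.42%). With an intensity trend 9 were called (7.11%). The t-test called 18 unadjusted (26.2%, 13% lower) and 0 after adjustment (0.601%). With 1 array left out 0 to 33 were called (0.0113% to 28.7%). The median change of the recombination genes (-0.21) was -0.44 within slide 2, -0.13 within slide 1, -0.043 with normexp, -0.39 without scaling and -0.30 to -0.17 with 1 array left out. Samples of one replicate number correlated by 0.468, 0.0735, 0.188 and -0.138 in their deviations, and 3 of 4 were closest to their own number. The study names no pairing, so the main fit used none. Whether the numbers mark pairs was not tested. With the replicate block, 2275 probes were called (8.44% of all tested, 1536 lower and 739 higher), 1 recombination gene and 18 wider genes. Some uncalled changes turned sign. Most were near 0, but those of Spo11 A_52_P660477 (-1.10) and Msh5 A_51_P429865 (-0.52) were not. Spo11 A_51_P290542 was 0.085 with normexp, 0.16 within slide 2 and -0.23 to 0.023 with 1 array left out (positive without wild type replicate 1), and A_52_P660477 was 0.024 with normexp. Msh5 A_51_P429865 was 0.10 with normexp, and Mlh3 A_52_P413661 was 0.095 with normexp and 0.12 within slide 2. Psmc3ip A_51_P256706 was 0.27 within slide 1 and -0.18 to 0.077 with 1 array left out, and A_52_P238044 was 0.12 and -0.21 to 0.033. The cause of these shifts was not tested. A probe near background, such as those of Msh4 and Spo11 A_52_P660477, has little signal on which a change could be measured.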

Other observations

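The other marker lists gave the following values, beside 3.66% of all tested probes called and a median log2 change of 0.04 over them. Of 11 tested genes of undifferentiated spermatogonia, 6 had a lower and 5 a higher mean, with a median log2 change of -0.32. In this list 2 were called lower (Lin28a and Sall4) and 1 higher (Bcl6b, log2 change 0.61, limma adjusted p = 0.0497). At an unadjusted limma p under 0.05, 5 were lower and 4 higher, beside 28.8% of all tested probes (14.8% lower). The list thus split in direction. The study lists Lin28a too among genes it chose as lower on these arrays, so its direction is not independent evidence. Of 7 tested genes of differentiating spermatogonia, 2 were called lower (Dmrtb1 at -1.80 and Dnmt3b at -1.05), with a median of -1.05. Of 6 tested pachytene and spermatid genes 0 were called, with a median of -0.39. Sertoli and Leydig cell lists had medians of 0.49 and 0.28 with 0 of 10 and 0 of 6 genes called. Of 5 peritubular myoid genes 1 was called lower (Cnn1 at -0.99), and the median was -0.06. Of 6 tested macrophage and mast cell genes 2 were called higher (Cpa3 at 1.90 and Mcpt4 at 1.51), and the median was 0.09. Of 8 housekeeping genes 0 were called, with a median of 0.34.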
